A study of Mus musculus with 42 samples.

Results

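Hyaluronan (HA), the large polysaccharide of the joint matrix, was set directly against bacterial lipopolysaccharide (LPS) in synovial fibroblasts labelled as lacking TSG-6. The comparison takes the arrays whose titles name the TSG-6 knockout and either HA (4 arrays) or LPS (4 arrays), which is 8 of the 42 arrays of the series. It asks what LPS did to these cells that HA did not. The HA cultures received HA at 24 ug/ml for 12 h, the LPS cultures received LPS at 200 ng/ml for 12 h, and 8 knockout-labelled cultures left untreated show what either agent did. The same agents at the same doses and time in wild-type cells (2 HA arrays, 2 LPS arrays and 5 untreated arrays) give the contrast in other cells. Each compound was used at 1 dose and 1 time, so the contrast holds for these concentrations.

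All cultures came from female BALB/c mice in which arthritis had been induced by immunisation with cartilage proteoglycan and an adjuvant, and the controls share this history. The labels state no age. The fibroblasts had been passaged up to 6 times and were kept overnight in medium with 0.5% serum before treatment. The labels speak of biological replicates, but whether each culture had its own mouse is not said, so the p-values measure the spread between these cultures only. The Tnfaip6 probe set, which reads the gene of TSG-6, was not lower under the knockout label. Its 4 HA arrays had centred log2 values of -0.04, 0.52, -0.34 and 0.06, its 4 LPS arrays had 0.46, 0.49, -0.09 and 0.17, and the untreated arrays ran from -0.41 to 0.25 with a median of -0.10. The wild-type arrays had -0.22 and -0.40 with HA, 0.26 and 0.23 with LPS, and -0.55 to -0.14 untreated. The position of the probe set against the deleted sequence is not known here. It therefore checks nothing about the genotype, and the word knockout-labelled is used for these cultures. HA and LPS did not differ at Tnfaip6 beyond the spread (-0.21 ± 0.19, limma adjusted p = 1).

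As background, LPS is the outer membrane glycolipid of Gram-negative bacteria. The carrier proteins LBP and CD14 pass it to the receptor TLR4, which signals through the adaptors MyD88 and TRIF to the transcription factor NF-kB and to interferon regulatory factors. Chemokines, cytokines and nitric oxide synthase are among the classical targets. HA is made by synovial fibroblasts themselves and is bound by CD44 and by TSG-6. HA fragments have been described in other cell systems as acting through CD44 and the TLR receptors, while long HA chains are mainly a structural component of synovial fluid.

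Every value below is a deposited log2 value centred on its probe set's median over the 42 arrays, so it shows how an array stands relative to the others and carries no absolute level. A difference is a difference of group means on that log2 scale, ± its SE, from 1 limma fit to all 42 arrays with Benjamini-Hochberg adjustment over 18194 genes and a threshold of 0.05. The values split the knockout-labelled arrays into 2 culture sets, which no label mentions. Set a holds replicates 1 and 2 of HA and of LPS, and set b holds replicates 3 and 4. The probe set of 18S ribosomal RNA stood more than 1 log2 unit above its median on 1 of 4 HA arrays (replicate 4) and 2 of 4 LPS arrays (replicates 2 and 4). The mean of the 10 fibroblast markers lay between -0.18 and 0.23 on the HA arrays and between 0.00 and 0.23 on the LPS arrays. Centred values cannot show whether a marker is absent, so the cell type itself was not checked.

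Promoter sequence with an NF-kB motif is shown for 3 LPS-responsive genes described below, chosen because their promoters hold a match. Cxcl2 and Cxcl3 encode neutrophil chemokines that differed between the agents in wild-type cells, and Il6 encodes the cytokine interleukin-6. The sequences are the 250 bases before the RefSeq gene start (GRCm38.p6, plus strand), at chr5:90903649-90903898 for Cxcl2, chr5:90785851-90786100 for Cxcl3 and chr5:30012864-30013113 for Il6. Capitals mark the match to the kappaB motif of NF-kB, which lies 97 bases before the start site in Cxcl2, 73 in Cxcl3 and 44 in Il6.
Cxcl2: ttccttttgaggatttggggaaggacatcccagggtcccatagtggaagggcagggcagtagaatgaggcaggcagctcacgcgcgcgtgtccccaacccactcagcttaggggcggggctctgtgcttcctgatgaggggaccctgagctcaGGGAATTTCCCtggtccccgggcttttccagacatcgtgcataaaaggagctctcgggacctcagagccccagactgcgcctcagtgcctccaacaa
Cxcl3: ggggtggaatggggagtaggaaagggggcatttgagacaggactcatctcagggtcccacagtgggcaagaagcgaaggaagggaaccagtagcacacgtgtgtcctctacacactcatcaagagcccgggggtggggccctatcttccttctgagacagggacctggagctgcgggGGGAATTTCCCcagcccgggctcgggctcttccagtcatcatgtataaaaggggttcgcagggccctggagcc
Il6: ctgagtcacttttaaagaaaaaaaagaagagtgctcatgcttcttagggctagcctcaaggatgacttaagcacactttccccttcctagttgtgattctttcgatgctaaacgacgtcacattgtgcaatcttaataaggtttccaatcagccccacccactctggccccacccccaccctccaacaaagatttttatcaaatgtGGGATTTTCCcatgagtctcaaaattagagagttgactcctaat
Cxcl2 and Cxcl3 carry the identical stretch GGGAATTTCCC, in which 2 matches overlap. Il6 carries GGGATTTTCC. Over all 27025 genes with a promoter in the RefSeq table, 9.6% hold a match on either strand in at least 1 of their promoters. Over the 14453 genes of the array with a promoter there 11.7% do. These shares use promoters of 300 bases, which begin 250 bases before the start site and reach past it. The share was 23.6% (13 of 55) among genes that rose with HA and 17.6% (24 of 136) among genes that rose with LPS, both against untreated cultures. Among genes that fell it was 16.7% (4 of 24) with HA and 13.3% (14 of 105) with LPS. Of the 10 leading LPS rises described below 6 had a promoter there, and 0 of these held a match. Of the 10 leading LPS falls 6 had one, and 2 of these held a match. A match describes letters and is not a binding site, and no match says only that these letters are not in this window.

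Set directly against each other, HA and LPS were not separated at any gene by the test. Of 18194 genes, 0 passed (0%), and every adjusted p was 1. At an unadjusted p under 0.05 in limma there were 274 genes (1.51%), fewer than the 1 in 20 that chance gives for independent arrays. The fit takes HA and LPS arrays as independent, although those of the same number correlated at 0.219 to 0.716. With the replicate number as a block the share was 2.5%. The part of the pairing in these shares was not tested, and 0 calls do not show a lack of difference. The differences ran from -1.09 to 0.92 with a median of -0.001 and a median SE of 0.138. Their 95% intervals lay within 2-fold either way for 17795 genes and within 1.5-fold for 15760, which bounds the difference at those genes without showing that the agents act alike. In data simulated on these arrays the same fit recovered 70.1% of genes changed 1.5-fold, 94% of those changed 2-fold and 100% of those changed 3-fold. The simulated arrays varied independently, without culture sets or pairing, and the changed genes put into them ease the adjustment. These shares therefore do not give the power of the real contrast. Only Ccl5 differed by at least 2-fold as a mean, and 25 genes differed by at least 1.5-fold. All 4 HA arrays lay above all 4 LPS arrays for 108 genes (0.594%) and below them for 122 genes (0.671%). With culture set a alone and with set b alone the test again called 0 genes. With the culture set as a block it called 1, and with the replicate number as a block it called 1. These genes, U90926 and Mamdc2, are described below.

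Against the untreated cultures each agent did change expression. LPS changed 326 genes (1.79%), with 177 higher (0.973%) and 149 lower (0.819%). HA changed 117 genes (0.643%), with 78 higher (0.429%) and 39 lower (0.214%). Within the sets LPS called 201 genes in set a and 276 in set b, and HA called 67 and 78. LPS called 114 genes in both of the sets in the same direction, and HA called 41. The balance of higher and lower LPS calls moved with the setting, with 81 higher and 120 lower in set a, 102 and 32 without the high 18S arrays, 347 and 373 with the culture set as a block, and 283 and 479 with the replicate number as a block. The replicate block kept only untreated replicates 1 to 4, all of set a, and put some of them in 1 block with treated arrays of set b. Treatment and culture set are thus partly mixed in its counts. Leaving out LPS replicate 1 or 3 took the LPS count to 199 or 213, and leaving out HA replicate 1, 2 or 3 took the HA count to 61, 77 or 67. These comparisons share the 8 untreated arrays, so their values are given side by side and their agreement is not counted. That LPS passed at more genes than HA does not show that the agents differ at those genes, and the direct comparison is the test of that.

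**Figure D1:**
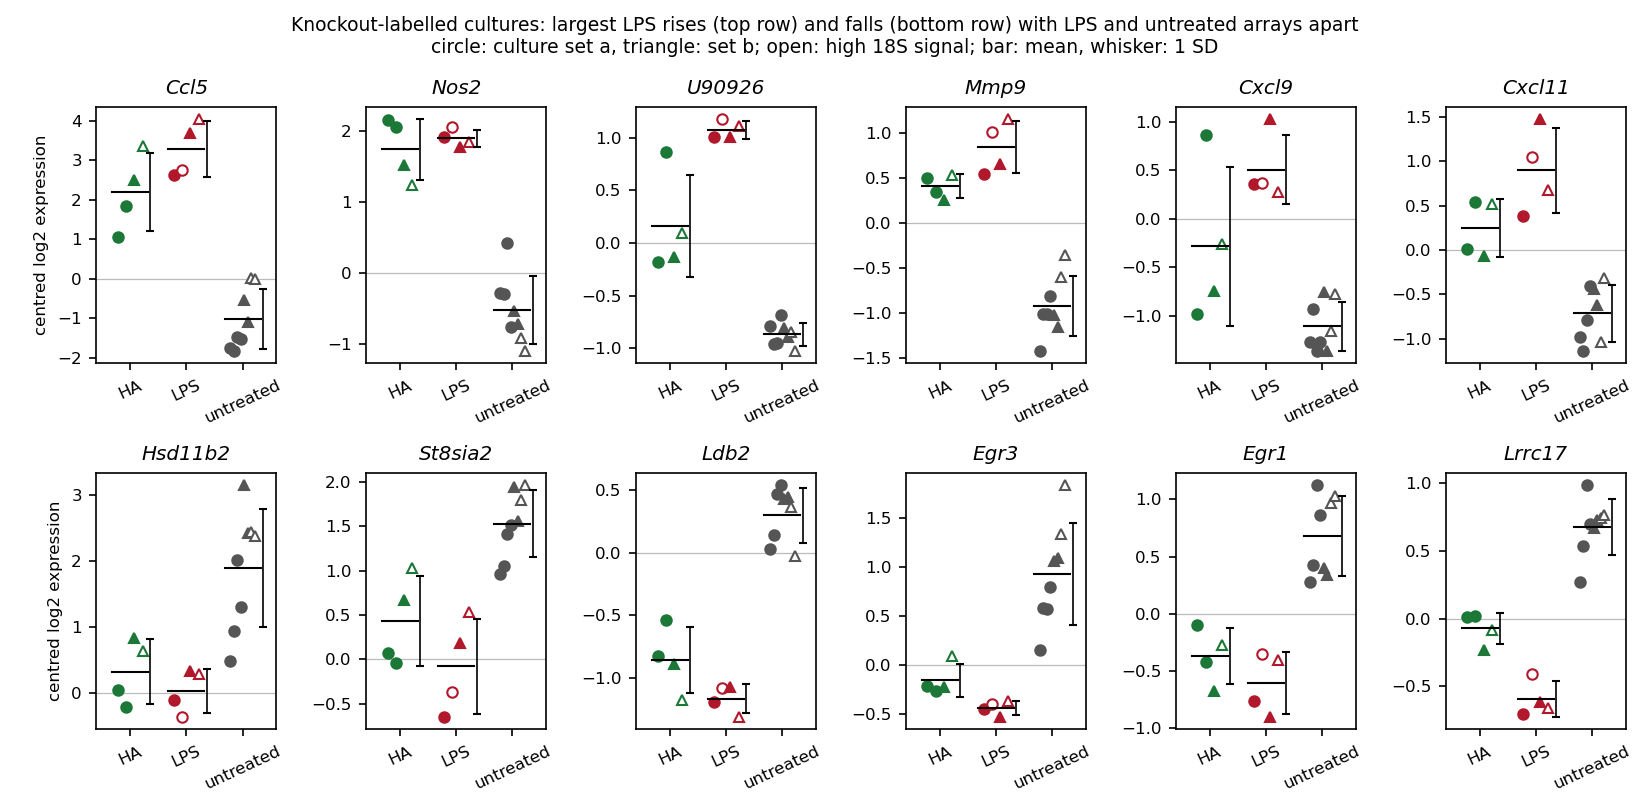
Centred log2 expression (vertical axes) on each knockout-labelled array with HA (4), LPS (4) or no treatment (8), for the 6 largest LPS rises (top row) and 6 largest LPS falls (bottom row) among called genes whose LPS arrays all cleared the untreated arrays. Circles are culture set a and triangles set b, open symbols are arrays with a high 18S signal, bars are means and whiskers 1 SD. The HA arrays of Ccl5 span 1.06 to 3.37 and its LPS arrays 2.63 to 4.05, while U90926 is the gene in the top row whose LPS arrays sit tightest, between 1.00 and 1.18.

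The leading genes are the 10 largest called rises and the 10 largest called falls with LPS among genes whose LPS arrays all stood clear of the untreated arrays. That condition passed over 6 larger called rises (Il6, Crabp2, Tnfsf11, Ccl3, Rarres2 and Csf3) and 1 larger called fall (Chst2), whose LPS and untreated arrays overlapped. Il6 gave 1.22 ± 0.37 with HA (adjusted p = 0.177) and 2.09 ± 0.37 with LPS, Ccl3 gave 1.43 ± 0.35 with HA and 1.66 ± 0.35 with LPS, and Chst2, a sulfotransferase, gave -0.94 ± 0.27 with HA (adjusted p = 0.133) and -1.31 ± 0.27 with LPS. Crabp2, a retinoic acid binding protein, gave 0.95 with HA and 1.76 with LPS, Tnfsf11, the osteoclast factor RANKL, gave 1.18 with HA and 1.68 with LPS, and Rarres2, which encodes chemerin, gave 0.81 with HA and 1.48 with LPS.

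Ccl5, a chemokine for T cells and monocytes, had the largest LPS rise and also the largest difference between the agents. The HA arrays had centred values of 1.06, 1.84, 2.51 and 3.37, the LPS arrays had 2.63, 2.74, 3.69 and 4.05, and the untreated arrays ran from -1.84 to 0.01 with a median of -1.29. Each LPS array stood above the HA array of the same number, but the groups overlapped, and both stood clear of the untreated arrays. The direct difference was -1.09 ± 0.53, or 2.12-fold lower with HA (unadjusted p = 0.0481, adjusted p = 1 in limma), with -1.24 in set a and -0.93 in set b. LPS raised Ccl5 by 4.31 ± 0.46 (19.8-fold, adjusted p = 1.93e-07) and HA raised it by 3.22 ± 0.46 (9.33-fold, adjusted p = 8.71e-05).

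Nos2, the inducible nitric oxide synthase, rose with both agents. It had 2.15, 2.05, 1.53 and 1.24 with HA and 1.92, 2.05, 1.78 and 1.84 with LPS, against -1.10 to 0.43 (median -0.62) untreated. The HA and LPS values interleave. The direct difference was -0.16 ± 0.26, with a 95% interval of -0.68 to 0.37, and its sign depended on the setting (-0.43 to 0.11 over the alternatives). The rises over untreated cultures were 2.26 ± 0.22 with HA (4.8-fold, adjusted p = 1.39e-07) and 2.42 ± 0.22 with LPS (5.35-fold, adjusted p = 2.4e-08).

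At 2 of these 10 LPS rises, U90926 and Mmp9, no HA array reached an LPS array. U90926 had -0.18, 0.87, -0.14 and 0.09 with HA and 1.01, 1.18, 1.00 and 1.11 with LPS, against -1.03 to -0.69 (median -0.87) untreated. Every HA array lay between the untreated and the LPS arrays. The agents differed by -0.92 ± 0.36 (unadjusted p = 0.016, adjusted p = 1 in limma), and with the culture set as a block the value was -0.92 ± 0.16 and U90926 the 1 gene called (adjusted p = 0.0463). LPS raised it by 1.95 ± 0.31 (adjusted p = 0.000198), while HA gave 1.03 ± 0.31 and did not pass (adjusted p = 0.185).

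Mmp9, a gelatinase that degrades basement membrane collagen, had 0.50, 0.34, 0.26 and 0.54 with HA and 0.54, 1.01, 0.66 and 1.16 with LPS, against -1.43 to -0.35 (median -1.02) untreated. All HA arrays lay just below all LPS arrays. The difference was -0.43 ± 0.22 (95% interval -0.88 to 0.01), and both agents passed against untreated cultures, HA with 1.33 ± 0.19 and LPS with 1.77 ± 0.19.

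The CXCR3 ligands Cxcl9 and Cxcl11, interferon-inducible chemokines for activated T cells, passed with LPS only, and their direct differences did not pass. Cxcl9 had -0.98, 0.86, -0.75 and -0.26 with HA and 0.36, 0.37, 1.04 and 0.28 with LPS. HA replicate 2 lay above 3 of the LPS arrays and the other HA arrays lay below all of them. Cxcl11 had 0.01, 0.54, -0.07 and 0.52 with HA and 0.38, 1.05, 1.48 and 0.67 with LPS, so the groups overlap at 1 LPS array. HA minus LPS was -0.79 ± 0.40 for Cxcl9 and -0.65 ± 0.28 for Cxcl11. Against untreated cultures Cxcl9 gave 0.83 ± 0.34 with HA (adjusted p = 0.571) and 1.62 ± 0.34 with LPS (adjusted p = 0.00528), and Cxcl11 gave 0.96 ± 0.24 with HA (adjusted p = 0.0507) and 1.61 ± 0.24 with LPS (adjusted p = 6.64e-05). With the mean of all probe sets HA minus LPS was -0.47 for Cxcl9 and -0.28 for Cxcl11, and the LPS rises were 0.99 and 0.77. Of the 2 probe sets of Cxcl11 only 1 had the sign given here, for HA minus LPS and for LPS against untreated. Fabp7 (a fatty acid binding protein), Clec4e (the lectin receptor Mincle), Lgi2 and Serpinb1b (a protease inhibitor) complete these 10 LPS rises. Their direct differences ran from -0.64 to -0.34, and of these 4 genes Serpinb1b alone also passed with HA (1.04 ± 0.18, adjusted p = 0.0012, beside 1.40 ± 0.18 with LPS).

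Among the 10 leading LPS falls the enzyme Hsd11b2, which inactivates glucocorticoids, came first. It had 0.04, -0.21, 0.83 and 0.64 with HA and -0.11, -0.37, 0.32 and 0.29 with LPS, against 0.49 to 3.15 (median 2.20) untreated. Set b stood above set a under both agents, and each HA array stood above the LPS array of the same number. It fell by 1.57 ± 0.29 with HA (adjusted p = 0.0024) and by 1.86 ± 0.29 with LPS (adjusted p = 9.16e-05), and HA minus LPS was 0.29 ± 0.33. The HA arrays overlapped the untreated ones. With only the groups compared in the limma fit the HA call was lost (adjusted p = 0.212), while the LPS call passed (adjusted p = 0.0354).

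The Egr1, Egr2 and Egr3 genes encode zinc finger transcription factors that growth factors and serum induce early. All 3 fell with HA (-1.05 ± 0.17, -0.73 ± 0.16 and -1.09 ± 0.22) and with LPS (-1.28 ± 0.17, -1.17 ± 0.16 and -1.37 ± 0.22). The HA calls of Egr2 (adjusted p = 0.21) and Egr3 (adjusted p = 0.0885) were lost with only the groups compared in the limma fit, and that of Egr3 also with the mean of its probe sets (-0.51, adjusted p = 0.0504), while the 3 LPS calls passed in both settings (Egr3 at -0.63 with the mean of its probe sets). Egr2 had -0.33, -0.62, -0.67 and -0.17 with HA and -0.99, -0.72, -0.97 and -0.91 with LPS, against -0.25 to 0.97 (median 0.33) untreated. Its HA arrays all lay above its LPS arrays, with a difference of 0.45 ± 0.18 (unadjusted p = 0.0201, adjusted p = 1 in limma). The HA arrays of Egr3 also lay above the LPS arrays, by 0.28 ± 0.26, whereas those of Egr1 overlapped (0.24 ± 0.20). Of the 2 probe sets of Egr3 only 1 had the sign given here, for HA minus LPS and for LPS against untreated. With their mean HA minus LPS at Egr3 was 0.13. St8sia2 (a polysialic acid transferase), Ldb2 (a LIM domain cofactor), Lrrc17, Inmt (an amine methyltransferase), Cybrd1 (a ferric reductase) and Slc5a3 (a myo-inositol transporter) make up the rest. Their direct differences were 0.51, 0.31, 0.52, 0.35, 0.16 and 0.27. With the mean of all probe sets they were 0.30, 0.24, 0.22, 0.35, 0.13 and 0.24, and of the 2 probe sets of Lrrc17 only 1 had the sign given here.

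**Figure D2:**
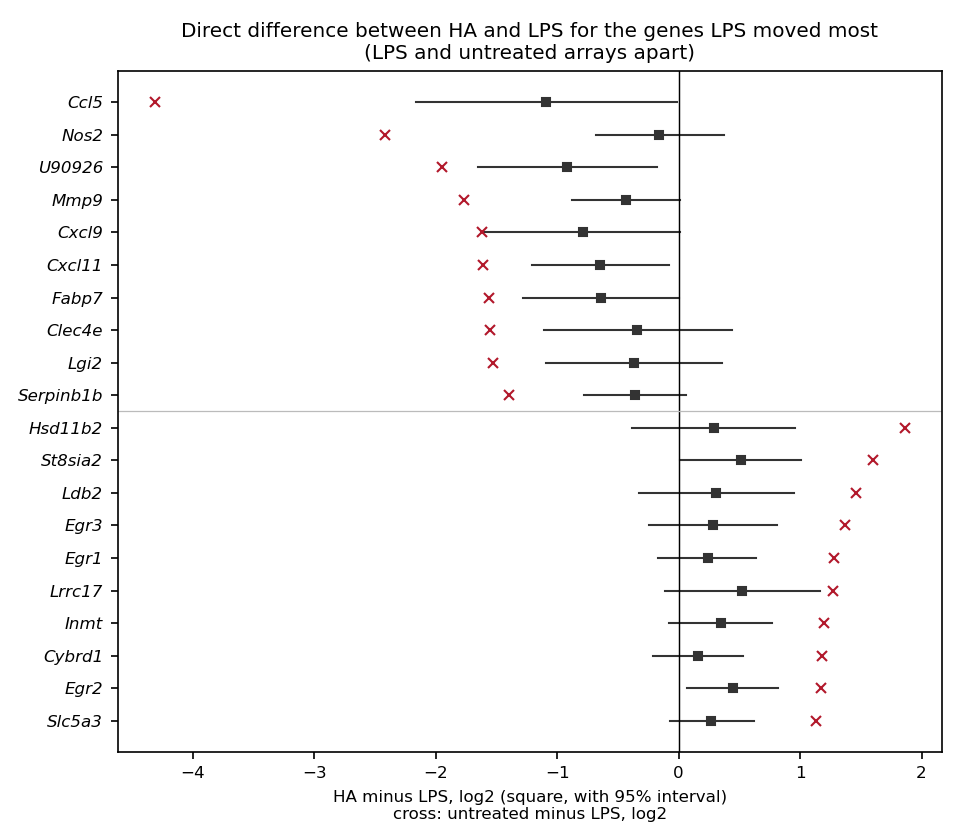
HA minus LPS (squares, with 95% intervals) on the log2 scale for the 10 leading LPS rises and 10 leading LPS falls in knockout-labelled cultures (called genes whose LPS arrays all cleared the untreated arrays), with untreated minus LPS as crosses. A square at 0 would be a gene at the same mean with both agents, and a square on its cross would be a gene that HA left at the untreated mean. The square of Nos2 is at -0.16 with its cross beyond -2, and that of U90926 lies near the middle, at -0.92.

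The HA mean lay below the LPS mean for all 10 rises and above it for all 10 falls. These genes were picked for their size on the same LPS arrays, so part of that direction comes with the choice. The same applies to all called genes. Over the 177 genes that LPS raised the median difference from untreated cultures was 0.487 with HA and 0.621 with LPS, with a median HA minus LPS of -0.183. Over the 149 that it lowered these medians were -0.421 with HA and -0.566 with LPS, with a median HA minus LPS of 0.171.

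Genes chosen in the wild-type arrays avoid that overlap. LPS changed 217 genes in wild-type cultures against untreated ones (1.19%), 134 of them higher (0.737%) and 83 lower (0.456%). In the knockout-labelled cultures the 134 had a median difference from untreated cultures of 0.318 with HA and 0.418 with LPS. Their median HA minus LPS was -0.106, with 38 genes higher and 96 lower with HA, beside -0.001 over all genes (9013 higher, 9173 lower). The 83 had -0.169 with HA and -0.233 with LPS, and a median HA minus LPS of 0.072, with 63 higher and 20 lower. Array by array the medians of the 134 were 0.193, 0.118, 0.093 and 0.020 with HA and 0.222, 0.075, 0.253 and 0.196 with LPS, and every untreated array lay at or below -0.131. LPS replicate 2, an array with a high 18S signal, fell below 3 of the HA arrays, so the groups overlap. The medians of the 83 were 0.005, -0.120, -0.070 and -0.089 with HA and -0.142, -0.198, -0.092 and -0.086 with LPS, and these overlap as well. The median HA minus LPS over the 134 genes was -0.03 with set a alone and -0.057 without HA replicate 4, an array with a high 18S signal, and that over the 83 genes was 0.041 without HA replicate 1.

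**Figure D3:**
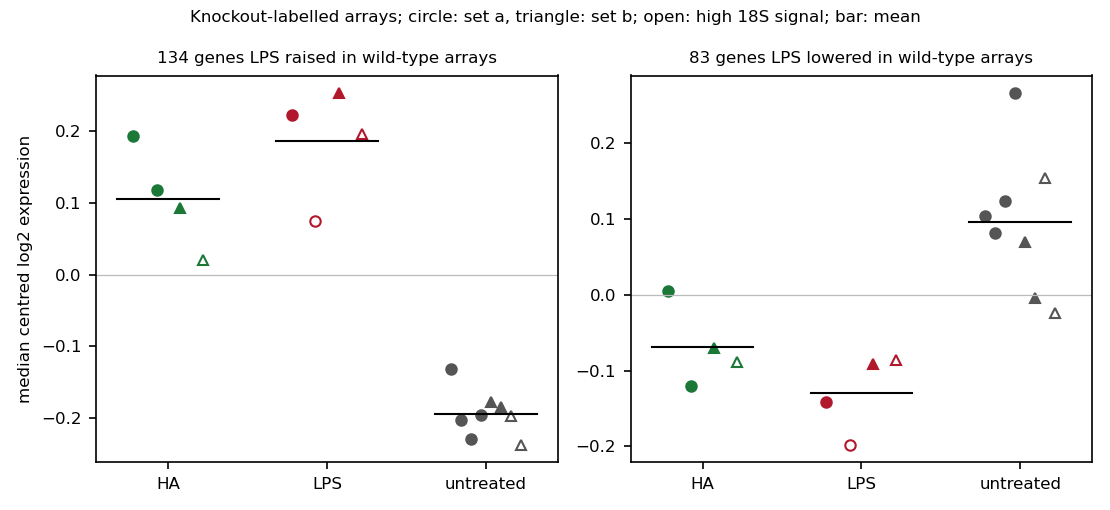
Median centred log2 expression on each knockout-labelled array (HA 4, LPS 4, untreated 8) over the 134 genes that LPS raised (left) and the 83 that it lowered (right) in wild-type arrays. Symbols are as in the plot of leading genes, and bars are means of the arrays. On the left the HA arrays lie between 0.020 and 0.193 and the LPS arrays between 0.075 and 0.253, all above the untreated arrays, which end at -0.131.

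Of the 14 genes of the LPS receptor and its adaptors none passed in the direct comparison (274 of all genes, and none of these 14, had an unadjusted p under 0.05 in limma). All 14 had a 95% interval within 2-fold, as did 17795 of all 18194 genes. Cd14, the LPS co-receptor, had -0.31, -0.21, -0.14 and -0.25 with HA and -0.12, -0.04, 0.04 and 0.06 with LPS, against -1.09 to -0.70 untreated. The HA arrays lay below the LPS arrays, with a difference of -0.21 ± 0.18. Against untreated cultures HA gave 0.59 ± 0.15 and did not pass (adjusted p = 0.063), and LPS gave a rise of 0.81 ± 0.15 (adjusted p = 0.0015). Lbp, the LPS binding protein, rose with both, by 1.28 ± 0.28 with HA and 1.30 ± 0.28 with LPS. Of 18 NF-kB subunits and feedback genes, 2 rose with HA and 4 with LPS, where 0.429% of all genes rose with HA and 0.973% with LPS, shares that apply to each list below. Their median HA minus LPS was 0.040, with 11 higher and 7 lower. The atypical IkB protein Nfkbiz and the anti-apoptotic Birc3 rose with both agents, and the NF-kB partner Bcl3 and the RNase Zc3h12a passed with LPS alone. Direct differences of these 4 genes lay between -0.12 and -0.03. With the mean of all probe sets Nfkbiz passed with neither agent (0.26 with HA, adjusted p = 0.195, and 0.22 with LPS, adjusted p = 0.213 in limma), Zc3h12a no longer passed with LPS (0.40, adjusted p = 0.104), and the direct differences were 0.04 for Nfkbiz, 0.04 for Birc3 and 0.12 for Zc3h12a. With only the groups compared in the fit the HA calls of Nfkbiz (adjusted p = 0.0744) and Birc3 (adjusted p = 0.115) and the LPS calls of Bcl3 (adjusted p = 0.0602) and Zc3h12a (adjusted p = 0.0736) were lost.

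Both chemokine lists held genes that rose with either agent. Among 14 CXC chemokines 3 rose with HA and 7 with LPS, and the median HA minus LPS was -0.091 (9 lower, 5 higher). Cxcl16, the ligand of CXCR6, had 0.39, 0.35, 0.34 and 0.44 with HA and 0.59, 0.41, 0.63 and 0.69 with LPS, a difference of -0.20 ± 0.15. It rose by 0.99 ± 0.13 with HA and 1.19 ± 0.13 with LPS. Among 15 CC chemokines 5 rose with HA and 6 with LPS, and the median HA minus LPS was -0.124 (10 lower, 5 higher). Ccl2, the monocyte attractant, rose by 0.37 ± 0.07 with HA and 0.39 ± 0.07 with LPS, and its direct difference was -0.02 ± 0.08. Ccl9 and Ccl17 likewise rose with both agents, and their direct differences were -0.18 ± 0.25 and -0.04 ± 0.18. Ccl3 varied widely, with 1.78, 0.31, 1.86 and 0.63 under HA and 1.98, 0.01, 2.93 and 0.60 under LPS. Replicates 1 and 3 were high and replicates 2 and 4 low under both agents.

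Of 21 cytokines and growth factors 7 rose with LPS against untreated cultures, and 0 passed with HA in limma, where 0.643% of all genes did, so 0 of 21 is near the share over all genes. At an unadjusted p under 0.05 HA had 6 of the 21, beside 6.9% of all genes. None passed in the direct comparison, and the median HA minus LPS was -0.179 with 14 lower and 7 higher. Il6 had -0.10, 0.13, -0.03 and -0.35 with HA and 1.49, 0.49, 1.49 and -0.35 with LPS, against -2.59 to -0.21 (median -1.24) untreated. LPS replicates 1 and 3 stood far above every HA array, and LPS replicate 4 matched the lowest HA array to 2 decimals. The direct difference was -0.87 ± 0.43 (unadjusted p = 0.0492, adjusted p = 1 in limma). LPS replicates 2 and 4 are the arrays with a high 18S signal, and without the high 18S arrays the difference was -1.49 (adjusted p = 1). The part of the 18S signal in it was not tested.

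Csf2, the granulocyte-macrophage growth factor, had -0.23, -0.53, -0.15 and -0.15 with HA and 0.79, 0.12, 0.32 and -0.05 with LPS, against -1.05 to -0.41 (median -0.84) untreated. All HA arrays lay below all LPS arrays. The difference was -0.56 ± 0.22 (unadjusted p = 0.0146, adjusted p = 1 in limma), with -0.83 in set a and -0.28 in set b. Tnf had 0.43, 0.12, 0.18 and -0.03 with HA and 0.10, 0.43, 0.33 and 0.72 with LPS, and the groups overlap (-0.22 ± 0.14). Csf3, the neutrophil growth factor, differed by -0.37 ± 0.32. Neither Tnf nor Csf3 passed with HA (0.43 ± 0.12 with adjusted p = 0.113, and 1.08 ± 0.28 with adjusted p = 0.0592), while with LPS both rose (0.65 ± 0.12 and 1.45 ± 0.28).

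Among 10 enzymes of nitric oxide, itaconate and arginine metabolism 2 rose with HA and 3 with LPS. All 10 direct intervals lay within 2-fold, near the share over all genes (17795 of 18194). Fewer did so in other lists, with 8 of 14 CXC chemokines and 10 of 15 CC chemokines. The count was 17 of 21 for cytokines and growth factors and 9 of 14 for antimicrobial and alarmin genes. Sod2, the mitochondrial superoxide dismutase, had 0.21, 0.12, 0.13 and -0.01 with HA and 0.24, 0.34, 0.30 and 0.58 with LPS, so all HA arrays lay below the LPS arrays (-0.25 ± 0.15). Hmox1, the haem oxygenase of the oxidative stress list, ran the other way, with 0.90, 1.11, 0.28 and 0.13 under HA and -0.02, 0.25, 0.05 and 0.17 under LPS. Its untreated arrays ran from -1.18 to 0.18 (median -0.54) and overlapped both groups. Hmox1 passed with HA (1.16 ± 0.24, adjusted p = 0.0111) and not with LPS (0.67 ± 0.24, adjusted p = 0.223), and the direct difference of 0.49 ± 0.28 did not pass. With only the groups compared in the limma fit the HA call was lost (adjusted p = 0.0943). The 2 highest HA arrays of Hmox1 are those of set a. Camp, the antimicrobial peptide cathelicidin, rose with both agents, by 0.78 ± 0.09 with HA and 0.90 ± 0.09 with LPS.

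Interferon-stimulated genes and class I antigen presentation genes had list medians near 0. Over 28 interferon-stimulated genes the median HA minus LPS was 0.007, with 15 higher and 13 lower, and the guanylate binding protein Gbp2 rose by 0.75 ± 0.15 with HA and 0.65 ± 0.15 with LPS. Over 13 class I antigen presentation genes the median was 0.080, with 9 higher and 4 lower, and 3 rose with each agent. The immunoproteasome subunits Psmb8 and Psmb10 rose with both. With only the groups compared in the limma fit Psmb8 passed with neither agent (adjusted p = 0.218 with HA and 0.2 with LPS). In that fit Psmb10 did not pass with LPS (adjusted p = 0.13). With the mean of its probe sets Psmb8 did not pass with HA (0.48, adjusted p = 0.109). Tapbpl, a peptide editor, passed with HA alone (0.45 ± 0.09, adjusted p = 0.00439, beside 0.24 ± 0.09 with LPS). The direct difference at Tapbpl was 0.21 ± 0.10 (unadjusted p = 0.041, adjusted p = 1).

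Matrix genes were changed by both agents in a few members. Of 19 metalloproteinases and inhibitors 2 rose with HA and 3 with LPS. The inhibitor Timp1 had 0.09, 0.03, 0.10 and -0.02 with HA and 0.26, 0.12, 0.35 and 0.34 with LPS, against -0.49 to -0.10 untreated. All HA arrays lay below the LPS arrays, and the small difference of -0.22 ± 0.08 had an unadjusted p of 0.0115 and an adjusted p of 1. The aggrecanase Adamts4 passed with LPS (0.74 ± 0.16) and not with HA (0.54 ± 0.16, adjusted p = 0.13). Its LPS and untreated arrays overlapped, and with the mean of its probe sets the LPS call was lost (0.45, adjusted p = 0.111 in limma). Among 19 collagen chains 2 rose with HA, and 3 rose and 2 fell with LPS. The fibrillar chain Col5a3 rose by 1.10 ± 0.13 with HA and 1.11 ± 0.13 with LPS, and its direct difference was -0.02 ± 0.15. Of 27 genes of HA synthesis, binding and breakdown 0 passed with HA in limma (3 at an unadjusted p under 0.05, beside the 6.9% of all genes) and 1, the HA synthase Has1, rose with LPS (0.58 ± 0.15). Both counts are near the shares over all genes. Has1 had 0.57, 0.22, 0.07 and -0.15 with HA and 0.43, 0.44, 0.25 and 0.63 with LPS, and the groups overlap.

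A further group of lists kept nearly 1 sign throughout without any member passing. HA was lower than LPS at 20 of 22 hypoxia and glycolysis genes (median -0.123). HA was higher at 16 of 17 contractile and myofibroblast genes (median 0.122) and at 15 of 18 cholesterol synthesis genes (median 0.071). All genes split 9013 higher and 9173 lower. In the glycolysis list the regulator Pfkfb3 had 0.57, 0.56, 0.20 and 0.18 with HA and 0.70, 0.62, 0.60 and 0.82 with LPS, with no overlap and a difference of -0.30 ± 0.18. With the mean of its probe sets Pfkfb3 gave -0.13. Hexokinase Hk2 differed by -0.23 ± 0.13 and the growth factor Vegfa by -0.21 ± 0.14. Members of a list share arrays, so their common sign is a description.

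The remaining pathway lists held few calls. Of 24 immediate early genes 3 fell with HA, and 2 rose and 4 fell with LPS, and the median HA minus LPS was 0.018. Jun, a subunit of the transcription factor AP-1, had 0.43, 0.05, 0.25 and 0.01 with HA and 0.29, 0.25, 0.59 and 0.59 with LPS. It rose with LPS (0.45 ± 0.09) and did not pass with HA (0.21 ± 0.09, adjusted p = 0.583). The groups overlap, with a difference of -0.24 ± 0.10. Of 16 kinase brakes, Socs3, a feedback inhibitor of cytokine receptors, rose by 1.07 ± 0.20 with LPS and gave 0.60 ± 0.20 with HA (adjusted p = 0.311). Its HA arrays had -0.09, -0.31, 0.27 and 0.33 and its LPS arrays 0.11, 0.05, 0.80 and 1.12, with set b above set a under both agents. Nog, the BMP antagonist noggin, rose by 0.45 ± 0.09 with HA and 0.43 ± 0.09 with LPS, and the direct difference was 0.02 ± 0.10. Over the glucocorticoid, cell cycle, oxidative stress, complement, BMP, plasminogen and prostaglandin lists the medians of HA minus LPS ran from -0.041 to 0.062.

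**Figure D4:**
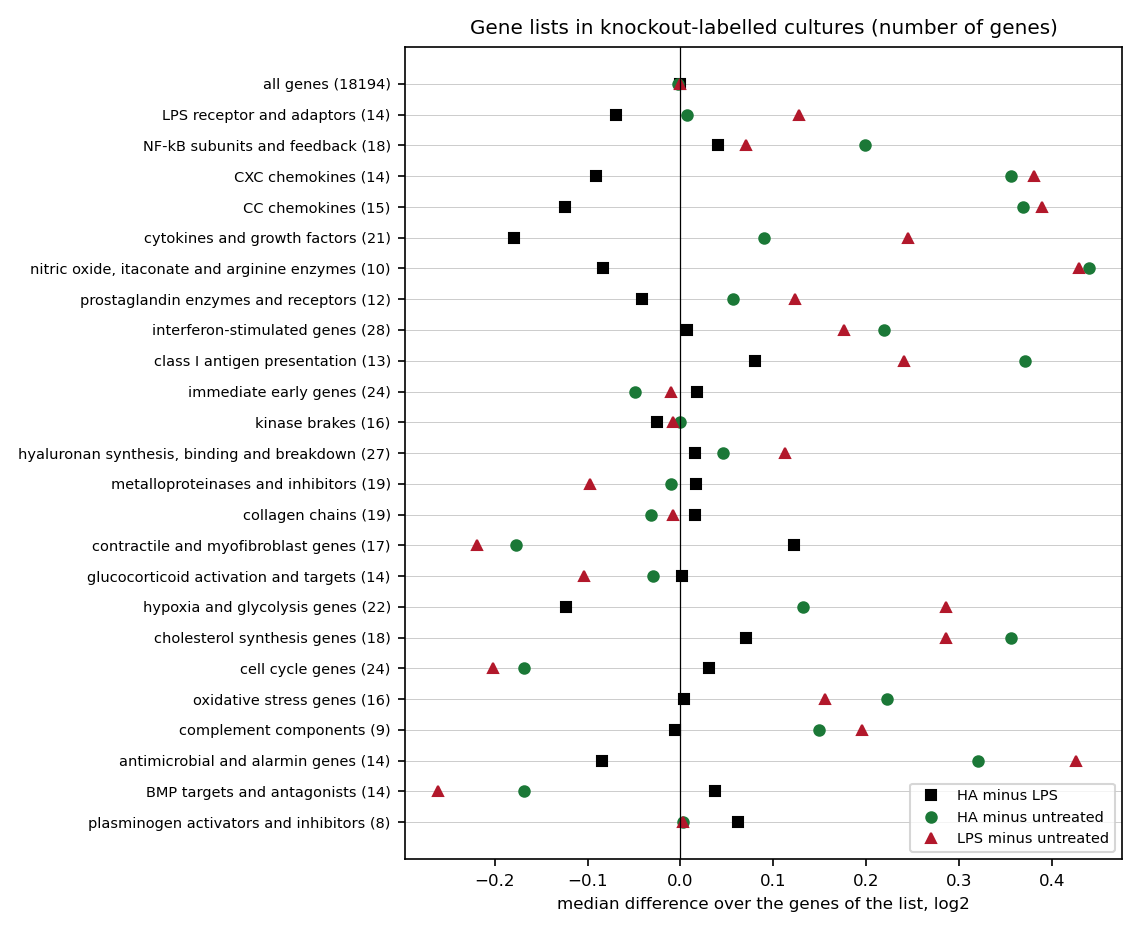
Median log2 difference over the genes of each of 24 pathway lists and over all genes in knockout-labelled cultures, for HA minus LPS (black squares), HA minus untreated (green circles) and LPS minus untreated (red triangles), with the number of genes in brackets. The last 2 share the untreated arrays. The squares lie between -0.179 (cytokines and growth factors) and 0.122 (contractile genes). The treatment medians of the chemokine lists run from 0.356 to 0.389 and lie further from 0. In other lists the square lies as far from 0 as the circle or nearly so. HA minus untreated was 0.090 for cytokines and growth factors, and 0.132 for hypoxia and glycolysis genes, whose HA minus LPS was -0.123.

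The widest differences with separated arrays were in both directions. These genes were picked from the direct comparison itself, at an unadjusted p under 0.05 with no overlap between the 4 HA and the 4 LPS arrays (74 genes, 0.407%), so their values are a description. Mamdc2, an extracellular protein with MAM domains, had 0.84, 1.14, 0.78 and 0.92 with HA and 0.06, -0.15, 0.19 and -0.10 with LPS, against 0.73 to 1.33 (median 1.01) untreated. The HA arrays lie within the untreated range and all LPS arrays below it. HA exceeded LPS by 0.92 ± 0.24 (unadjusted p = 0.000489, adjusted p = 1 in limma), with 1.04 in set a and 0.81 in set b. With the replicate number as a block the value was 0.92 ± 0.15 and Mamdc2 the 1 gene called (adjusted p = 0.0449). LPS lowered it by 1.02 ± 0.21 (adjusted p = 0.00342), and HA minus untreated was -0.10 ± 0.21. The wild-type arrays gave an HA minus LPS of 1.20 ± 0.34 at Mamdc2, also without passing (adjusted p = 0.692).

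The transcription factors Sox4 and Bnc2, and Ccdc189 and Egr2, follow Mamdc2 among genes higher with HA, by 0.55, 0.49, 0.48 and 0.45. With the mean of all probe sets Sox4 gave 0.13 and Bnc2 0.16. Those lower with HA were U90926, Csf2, Olfm2 (-0.47), Ttc36 (-0.46) and the RNA-binding protein Rbm33 (-0.44, and -0.01 with the mean of its probe sets). Rbm33 rose with both agents, by 0.78 ± 0.16 with HA and 1.22 ± 0.16 with LPS. Tac1, which encodes the precursor of the neuropeptide substance P, had -0.28, -0.42, -0.52 and 0.00 with HA and 1.01, -0.12, 0.98 and 0.27 with LPS, against -0.50 to 0.00 (median -0.34) untreated. HA replicate 3 lay just below the lowest untreated array and the other HA arrays sat in the untreated range. LPS replicates 1 and 3 stood above all others. Its difference was -0.84 ± 0.21 (unadjusted p = 0.000318, adjusted p = 1 in limma), and -0.47 with the mean of its probe sets. It became the 1 gene called when arrays were weighted by quality (-1.07 ± 0.19, adjusted p = 0.0435) and when the high 18S arrays were left out (-1.40 ± 0.12, adjusted p = 4.61e-06). That second fit drops HA replicate 4 and LPS replicates 2 and 4, among them the 2 lower LPS values.

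In wild-type cells the same contrast passed at 5 of 18194 genes (0.0275%), 1 higher with HA (0.0055%) and 4 lower (0.022%). Cxcl2 had 0.75, 0.87, 0.70 and 0.36 with HA and 0.98, 0.70, 1.00 and 0.38 with LPS in knockout-labelled cultures, against -0.94 to -0.13 (median -0.54) untreated. In wild-type cultures it had -0.93 and -1.11 with HA and 0.71 and 1.15 with LPS, against -3.45 to -3.27 (median -3.39) untreated. The knockout-labelled HA and LPS arrays interleave, while the wild-type HA arrays lie between the untreated and the LPS arrays. HA minus LPS was -0.09 ± 0.16 (-0.22 to 0.01 over the alternatives) in knockout-labelled and -1.95 ± 0.22 in wild-type cultures (adjusted p = 4.15e-06).

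The difference between the genotypes in that contrast was the only one of its kind called, 1 of 18194 genes (0.0055%). At Cxcl2 it was 1.85 ± 0.27, with a 95% interval of 1.31 to 2.40 (adjusted p = 0.00113 in limma). It was 1.61 in set a (adjusted p = 1), 2.10 in set b (adjusted p = 0.0538) and 1.42 without the high 18S arrays (adjusted p = 0.877). It also missed the threshold without wild-type HA replicate 2 (1.77, adjusted p = 0.0525) and without wild-type LPS replicate 2 (1.63, adjusted p = 0.127), and passed with any other single treated array left out. The treated wild-type arrays kept without the high 18S arrays are those of set a, so these settings are not separate checks of the wild-type side. Against untreated cultures HA gave 1.22 ± 0.13 in knockout-labelled and 2.37 ± 0.18 in wild-type cultures, and LPS gave 1.32 ± 0.13 in knockout-labelled and 4.31 ± 0.18 in wild-type cultures.

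Cxcl3 went with Cxcl2 in wild-type cells. It had 0.20, 0.69, -0.06 and 0.04 with HA and 0.30, 0.53, 0.27 and 0.44 with LPS in knockout-labelled cultures, and -1.03 and -1.13 with HA and 0.52 and 0.57 with LPS in wild-type ones. The direct difference was -0.17 ± 0.17 in knockout-labelled and -1.63 ± 0.25 in wild-type cultures, and the difference of 1.46 ± 0.30 between them did not pass (adjusted p = 0.157). Pf4, the platelet factor chemokine, and Stfa3, a cysteine protease inhibitor of the stefin family, were lower with HA in wild-type cultures. Pf4 differed by -0.28 ± 0.13 in knockout-labelled and -1.42 ± 0.19 in wild-type cultures, and Stfa3 by -0.51 ± 0.28 in knockout-labelled and -2.45 ± 0.39 in wild-type cultures. Nmb, which encodes the peptide neuromedin B, was the 1 gene higher with HA in wild-type cultures. It gave 0.05 ± 0.17 in knockout-labelled and 1.19 ± 0.23 in wild-type cultures (adjusted p = 0.0471). None of these 4 genes passed the test of the difference between genotypes as fitted. Stfa3 passed it with the culture set as a block (1.94 ± 0.35, adjusted p = 0.0317 in limma) and in set b alone (2.61, adjusted p = 0.0131), and Pf4 passed it without wild-type LPS replicate 1 (1.45, adjusted p = 0.0121). Each set holds 1 wild-type array per agent, and those of set b are the ones with a high 18S signal (3.8 with HA and 1.877 with LPS). Set a alone and the fit without the high 18S arrays thus keep the same treated wild-type arrays. In wild-type cultures HA minus LPS at Cxcl2 was -1.64 in both of these settings and -2.26 in set b. Without wild-type LPS replicate 2 only Cxcl2 still passed (-1.72), while Cxcl3 (-1.61), Pf4 (-1.12), Stfa3 (-2.05) and Nmb (0.98) did not. Without wild-type HA replicate 2 Cxcl2 (-1.86) and Pf4 (-1.38) passed, and without wild-type LPS replicate 1 Nmb was the 1 of the 5 that missed (1.40, adjusted p = 0.0674).

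**Figure D5:**
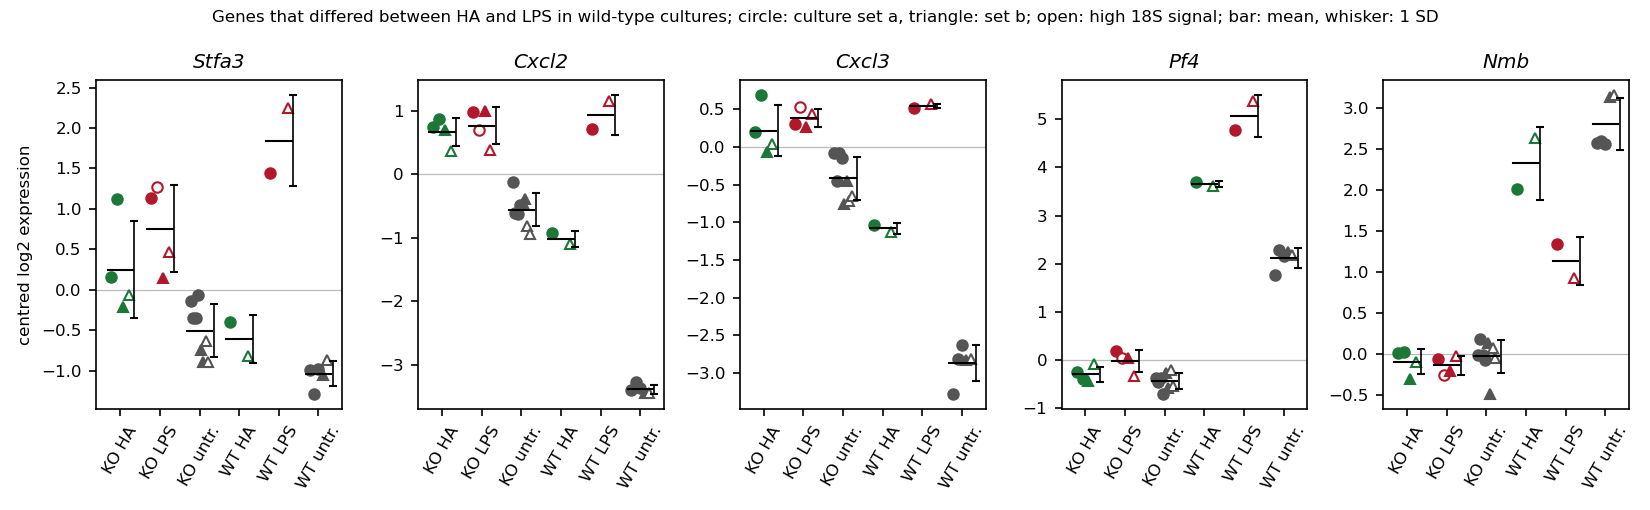
Centred log2 expression on each array for the 5 genes that differed between HA and LPS in wild-type cultures, with knockout-labelled (KO) HA, LPS and untreated arrays left of the wild-type (WT) ones. Circles are set a and triangles set b, open symbols are arrays with a high 18S signal, bars are means and whiskers 1 SD. At Cxcl2 the knockout-labelled HA and LPS arrays all lie between 0.36 and 1.00, while in wild-type cultures HA is near -1 and LPS at 0.71 and 1.15.

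The genotypes also differed in markers of another cell type. The mean of 10 endothelial markers ran from -1.26 to 0.25 on the knockout-labelled HA arrays and from -1.18 to -0.11 on the knockout-labelled LPS arrays, against 2.89 to 3.23 on the wild-type HA arrays and 2.67 to 2.96 on the wild-type LPS arrays. The mean of 7 chondrocyte markers ran from 0.15 to 0.41 on the knockout-labelled HA arrays and from 0.00 to 0.35 on the knockout-labelled LPS arrays. It was -1.16 on both wild-type HA arrays and -1.40 and -1.26 on the wild-type LPS arrays. In these bulk cultures fewer cells of a type and less RNA per cell cannot be told apart, and the part of other cells in the genotype difference was not tested. Between the HA and LPS arrays of 1 genotype the endothelial ranges lay close together or overlapped. Of the 8 marker lists, the largest median difference between HA and LPS in knockout-labelled cultures was 0.086, at the endothelial markers.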

How the data were processed

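Each culture was profiled on 1 Affymetrix expression array. Per the submitters' processing notes the deposited log2 values were made with RMA, of unstated version. Each of 45101 probe sets has a median of 0 over the 42 arrays (within 5e-07), so the deposited values are centred by the authors. The base is not given, and base 2 was taken because probe sets span up to 9.81 units. Centring leaves no level, so no dim probe set could be removed. Probe sets listed with 1 gene (34958) were used, those with several (932) or none (9211) were left out. Each gene took its probe set with the largest SD, avoiding those that correlated above 0.7 with the 18S probe set where another existed, which left 18194 genes. Precision is limited by the number of arrays.

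All 42 arrays were fitted in limma 3.58.1 (R 4.3.3) with a mean for each of 12 groups (30 residual and 4.23 prior degrees of freedom), with Benjamini-Hochberg adjustment inside each of 5 contrasts. The fit was tested on simulated data with 67, 67 and 66 genes changed 1.5-, 2- and 3-fold, and called 3 unchanged genes. The comparison and the 32 gene lists (24 of pathways, 8 of markers, 465 members on the array, 41 not analysed here) were chosen with earlier results of these data known, and lists were described by counts and medians with no test. The rule for named genes took the 12 largest called differences each way, up to 4 called members per list in each contrast, the 3 largest called each way for HA against untreated and for the genotypes, and Tnfaip6. The direct comparison called none, so the 10 largest called rises and falls with LPS whose arrays did not overlap the untreated ones, the larger changes that this passed over, the 5 widest separated differences each way, the wild-type calls and genes called under an alternative were added after their values were seen.

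Culture sets were found from the data. A gap of 1 log2 unit or more parted the knockout-labelled arrays at 17 probe sets, 12 of them in the same way, and the wild-type arrays at 49, 33 of them in the same way. Replicate numbers come from the labels. Deviations of HA and LPS arrays with the same number correlated at 0.264, 0.716, 0.549 and 0.219, so the numbers were taken to pair these arrays, although LPS replicate 1 correlated at 0.294 with HA replicate 2. Alternatives covered probe set choice, normalization, array weights, 18S arrays, both blocks and each array left out. The 18S covariate was added after the data were seen. Promoters come from the RefSeq table for GRCm38.p6.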

Additional observations from a re-analysis of the deposited data

Results flagged for a closer look

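Over 82 named genes, 246 groups of 4 or 8 knockout-labelled arrays were examined for a single array far from the rest, and 10 (4.1%) had one, where chance gives about 1 in 20. In the HA arrays these were Egr3 at 0.09 in replicate 4 (next -0.22), Lgi2 at 1.2 in replicate 3 (next 0.81), Nfkbiz at 0.49 in replicate 2 (next 0.29), Inmt at -0.17 in replicate 1 (next 0.39) and Vim at -0.05 in replicate 3 (next 0.06). In the LPS arrays they were Cxcl9 at 1.04 (next 0.37) and Lgi2 at 1.62 (next 1.16), both in replicate 3. In the untreated arrays they were Serpinb1b at -1.64 in replicate 8, Nmb at -0.49 in replicate 6 and Nog at -0.41 in replicate 4. Lgi2 stood highest in replicate 3 under both agents.

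Cxcl2 differed between the genotypes in HA against LPS by 1.85 ± 0.27 (limma adjusted p = 0.00113), from -0.09 in knockout-labelled and -1.95 in wild-type cultures.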

How the results depend on the processing

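The direct comparison of HA and LPS in knockout-labelled cultures called 0 genes, and called 1 with array weights, 1 without the high 18S arrays, 1 with the culture set as a block and 1 with the replicate block. It called 0 with each array left out in turn, with each set alone, with cyclic loess, with arrays centred on their median, with the mean of all probe sets, with only the groups compared and with the 18S covariate. LPS against untreated (326) called 525 with array weights, 134 without the high 18S arrays, 720 with the set block, 201 in set a alone, 762 with the replicate block and 491 with the 18S covariate, and 199 to 277 with 1 array left out. HA against untreated (117) called 60 with only the groups compared, 63 without the high 18S arrays, 305 with the set block, 67 in set a alone, 361 with the replicate block and 61 to 88 with 1 array left out. Against untreated cultures the replicate numbers do not pair the arrays, and the replicate block keeps only untreated arrays of set a. HA against LPS in wild-type cultures (5) called 0 with only the groups compared, 8 with the mean of probe sets, 8 with cyclic loess, 1 without the high 18S arrays, 26 with the set block, 0 in set a, 21 in set b, 18 with the replicate block, and 1 (without LPS replicate 2) to 9 (without HA replicate 1) with 1 array left out. A lone array is there assumed to vary like the other groups. Set a alone and the fit without the high 18S arrays keep the same treated wild-type arrays. The genotype difference (1) called 0 with only the groups compared, 0 without the high 18S arrays, 2 with the set block, 0 in set a, 3 in set b, 2 with the replicate block and 0 to 3 with 1 array left out. The median HA minus LPS over genes raised by LPS in wild-type arrays (-0.106) was -0.03 in set a, and -0.123 to -0.057 with 1 array left out. Over genes lowered there (0.072) it was 0.041 to 0.095. The causes were not tested. Of 82 named genes 28 changed the sign of HA minus LPS in knockout-labelled cultures in at least 1 alternative, none of them called. Of named calls against untreated cultures none changed sign. With only the groups compared 15 of 31 were lost for HA and 13 of 66 for LPS, and with the mean of probe sets 4 for HA and 4 for LPS.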
